A study of Drosophila melanogaster with 2 samples.

Results

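The genes described here are 10 genes of the Hippo and Fat pathways of Drosophila melanogaster, examined for binding by Odd. They are ex, kibra, Mer, hpo, wts, yki, sd, ft, ds and fj, chosen by name out of 13968 protein-coding genes. Earlier results of these data were known when they were chosen. Odd is the zinc finger protein odd-skipped, a transcription factor known as a pair-rule regulator of segmentation. Whole embryos of both sexes, collected together at 0 to 16 h of age, were the source of the chromatin, and an antibody to GFP pulled it down. The embryos came from 1 transgenic line that carries Odd with eGFP at its C-terminus, and the fragments were sonicated to 200 to 800 bp. There was 1 group of 2 biological replicates, with no other genotype, age or treatment, so every value below is a description of where Odd-eGFP peaks lay. The antibody field of the labels names Odd itself, while the description of the same libraries names GFP. The sources used here do not state what drives the transgene, and the control library was not analysed here. In whole embryos, a weak peak of all cells and a strong peak of few cells cannot be told apart. The lists hold peaks and not reads or transcript levels, so the depth of the libraries is unknown and no tissue marker could be checked.

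The Hippo pathway limits organ growth. The kinase Hippo, the product of hpo, activates the kinase Warts, the product of wts, and Warts phosphorylates the coactivator Yorkie and keeps it out of the nucleus. Free Yorkie binds DNA through partners such as Scalloped and raises genes of growth and survival. Expanded, Merlin and Kibra switch the kinases on at the apical cell cortex. The large cadherins Fat and Dachsous bind each other between neighbouring cells, and this branch feeds into Warts and also orients cells within the epithelial plane. ex, kibra and fj are known both as pathway components and as genes that the pathway itself regulates.

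The list followed below is the IDR list, a deposited set of 4291 peaks made from the 2 replicates and their pool. Its peaks were the 4291 strongest of the 30000 of the relaxed pooled list, and not every one had a counterpart in each replicate. Each peak has a summit and a signal value, the score the authors' caller gave it, and rank 1 is the highest signal in a list. The territory of a gene is its annotated span plus 5 kb on each side. In their territories, 8 of the 10 genes held an IDR summit, which is 80.0% with an exact 95% binomial interval of 44.4 to 97.5%. All protein-coding genes stood at 39.7%. The interval covers counting only. The 10 genes were chosen with earlier results of these data known, so the gap to 39.7% is not that of an unselected set. The 8 genes were ex, kibra, Mer, ds, yki, wts, hpo and ft, in order of their strongest summit, and sd and fj held none. Among the 4291 strongest peaks of replicate 1 the count was 9 of 10, with sd added, against 40.3% of all protein-coding genes. Among as many of replicate 2 it was 8 of 10, against 41.4% of all protein-coding genes.

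Long genes catch more summits, and the genes differ in length from 2.51 kb for yki to 75.0 kb for ds. Of the 4 genes under 5 kb, Mer, yki and hpo held a summit and fj did not, while 34.2% of all protein-coding genes of that length held one. Of the 6 genes of 15 kb or more, ex, kibra, wts, ft and ds held one and sd did not. Over all protein-coding genes of 15 kb or more the share was 64.1%. That class has no upper limit, so length was not matched within it. The signals lay near the middle of the list. The 16 summits of the 8 genes had a median signal of 211 and a median rank of 2312, against 219 and 2146 for all IDR summits. The best was rank 631 at ex, the lowest was rank 4085 at yki, and 2 of the 16 ranked among the 1072 strongest of the list.

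**Figure D1:**
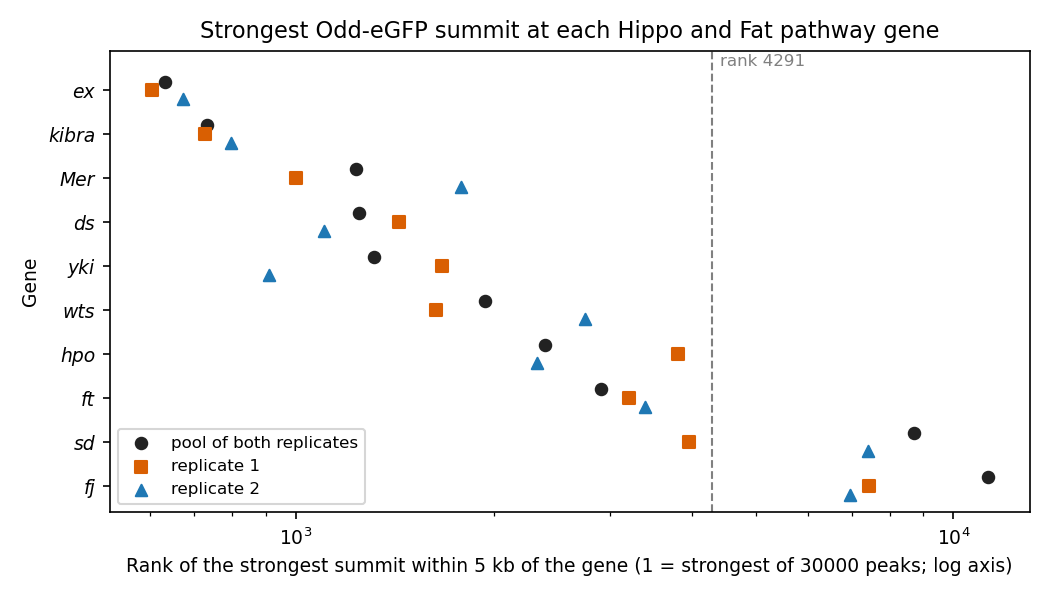
Rank of the strongest summit in the territory of each of the 10 genes, in the pooled list and in each replicate, on a log axis where rank 1 is the strongest peak and the dashed line marks rank 4291, the length of the IDR list. The strongest pooled summits of 8 genes lie inside the IDR list, from rank 631 at ex to rank 2913 at ft, and those of sd and fj lie beyond it at ranks 8701 and 11284.

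At the top of the pathway, ex had the strongest summit of the 10 genes, and it stood at the gene's own start. ex (FBgn0004583, chr2L:431227-448701, plus strand) encodes Expanded, a cortical scaffold that brings pathway kinases together. Its best signal was 440.5 at rank 631 in the pool, 236.6 at rank 603 in replicate 1 and 205.9 at rank 674 in replicate 2. That summit lay 165 bp upstream of the start site and the replicate summits lay 2 bp and 0 bp away from it. The other ex summit lay in an intron, 10871 bp from the start, with a signal of 238.5 at rank 1866 in the pool, 120.6 at rank 2042 in replicate 1 and 120.8 at rank 1884 in replicate 2. Both ex summits lay in the territory of no other protein-coding gene. The intronic summit was nevertheless nearer to the start of crq, at 9204 bp, than to that of ex. Nearer still was the start of the non-coding gene lncRNA:CR43717, at 2559 bp.

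kibra (FBgn0262127, chr3R:14697689-14724261, minus strand) had the most summits, 4, but its strongest stood at a neighbour. kibra encodes a WW-domain scaffold that works with Expanded and Merlin. The best signal was 403.6 at rank 732 in the pool, 214.3 at rank 728 in replicate 1 and 190.7 at rank 796 in replicate 2. This summit lay 477 bp past the 3' end of kibra and 80 bp from the start of Meltrin, a metalloprotease gene. The summit at the start of kibra itself lay 102 bp inside the gene and was weaker, with 181.0 at rank 2993 in the pool, 83.25 at rank 3884 in replicate 1 and 99.47 at rank 2690 in replicate 2. The other kibra summits were intronic, 9812 bp and 15107 bp from the start, at ranks 3395 and 4013. The summit 9812 bp in had a replicate 1 summit within 100 bp, at rank 4170, and none in replicate 2, which held one 9601 bp from the start at rank 3372. The summit 15107 bp in was matched in replicate 1 at rank 4616 and in replicate 2 at rank 3429. Its nearest protein-coding start was that of Meltrin, 11862 bp away.

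Mer (FBgn0086384, chrX:19689697-19693500, minus strand) had 1 summit, at its own start. Mer encodes Merlin, a FERM-domain protein of the cortex related to the human NF2 tumour suppressor. The signal was 303.1 at rank 1236 in the pool, 181.2 at rank 999 in replicate 1 and 124.8 at rank 1781 in replicate 2. The summit lay 115 bp inside the gene, and the nearest other protein-coding start, that of CG14229, was 1673 bp away. Replicate 1 ranked this summit higher than replicate 2 did.

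Between the core kinases, the summits of wts lay within the gene and that of hpo lay at a neighbour. wts (FBgn0011739, chr3R:30789625-30806619, minus strand) encodes the Warts kinase. Its best signal was 233.7 at rank 1937 in the pool, 136.7 at rank 1631 in replicate 1 and 98.4 at rank 2749 in replicate 2. That summit was intronic, 9095 bp from the start of wts and 9593 bp from the next protein-coding start, that of dj-1beta, while the start of the microRNA mir-1013 was nearer at 5828 bp. A weaker intronic summit lay 3638 bp from the start, with 157.4 at rank 3740 in the pool, 90.81 at rank 3330 in replicate 1 and 71.28 at rank 4798 in replicate 2. No IDR summit stood at the wts promoter.

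The sequences under the strongest summits that lay nearest to a start of ex and Mer are shown because they are the promoter windows of the upstream regulators. The window for wts is shown because its strongest summit lay deep inside the gene. Each is from dm6, read 5' to 3' on the strand of the gene, within 100 bp of the summit and cut where an annotated untranslated region begins. Capitals in the ex window mark the last 7 letters of the searched Odd word, on the opposite strand, and the other windows hold none of the searched words.
ex promoter, chr2L:430962-431162: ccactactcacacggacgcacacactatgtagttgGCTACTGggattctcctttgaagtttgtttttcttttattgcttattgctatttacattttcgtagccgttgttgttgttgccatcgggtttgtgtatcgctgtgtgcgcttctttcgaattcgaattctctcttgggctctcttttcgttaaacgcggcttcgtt
Mer promoter, chrX:19693285-19693435: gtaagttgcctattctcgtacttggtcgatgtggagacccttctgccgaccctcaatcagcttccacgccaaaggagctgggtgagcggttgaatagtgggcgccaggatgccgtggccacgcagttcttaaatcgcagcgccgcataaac
wts intron, chr3R:30797424-30797624: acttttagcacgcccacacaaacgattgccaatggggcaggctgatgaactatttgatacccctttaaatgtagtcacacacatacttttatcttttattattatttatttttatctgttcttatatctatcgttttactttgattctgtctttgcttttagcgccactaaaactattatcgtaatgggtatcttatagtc

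hpo (FBgn0261456, chr2R:19493996-19496856, minus strand) encodes the Hippo kinase. Its only IDR summit had 207.0 at rank 2391 in the pool, 84.15 at rank 3807 in replicate 1 and 107.8 at rank 2324 in replicate 2. It lay 1893 bp past the 3' end of hpo and 16 bp from the start of Rep. At the start of hpo itself, 36 bp upstream, the pooled relaxed list held a summit with a signal of 141.4 at rank 4434. The lowest signal in the IDR list was 144.4, so this summit fell just outside it. Its counterparts had 65.96 at rank 5736 in replicate 1 and 73.85 at rank 4521 in replicate 2, so the hpo start carried a summit in all 3 relaxed lists but in no list of the 4291 strongest.

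The nuclear effectors differed: yki had 3 IDR summits around it and sd had none. yki (FBgn0034970, chr2R:24065975-24068485, minus strand) encodes the coactivator Yorkie. Its best signal was 292.7 at rank 1314 in the pool, 134.9 at rank 1668 in replicate 1 and 178.2 at rank 910 in replicate 2. That summit lay 3559 bp past the 3' end of yki and 15 bp from the start of RpL39, a ribosomal protein gene, within the territories of 6 protein-coding genes. Upstream of yki, summits lay 293 bp and 554 bp from its start, 261 bp apart, and 21 bp and 11 bp from starts of the neighbouring gene Gpat4. The closer of these had 214.3 at rank 2234 in the pool, 95.55 at rank 3049 in replicate 1 and 116.4 at rank 2010 in replicate 2. The farther one had 149.0 at rank 4085 in the pool, 64.26 at rank 5964 in replicate 1 and 80.86 at rank 3854 in replicate 2. All 3 yki summits were therefore nearer to the start of another protein-coding gene than to that of yki.

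sd (FBgn0003345, chrX:15804370-15827682, plus strand) encodes Scalloped, the TEAD-family protein through which Yorkie reaches DNA, and it has 22 annotated transcripts from 7 start sites. Its strongest signal was 90.54 at rank 8701 in the pool, 82.35 at rank 3955 in replicate 1 and 54.04 at rank 7408 in replicate 2. The summit of the pool and that of replicate 2 lay 48 bp apart, near an internal start site of sd, and that of replicate 1 lay elsewhere, in an intron 14465 bp from the start of the gene. No pooled summit lay within 4042 bp of the replicate 1 summit, and the nearest one of replicate 2, 880 bp away, ranked 24537. The strong peak of replicate 1 that added sd to its count was thus found in that replicate alone at such a rank.

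**Figure D2:**
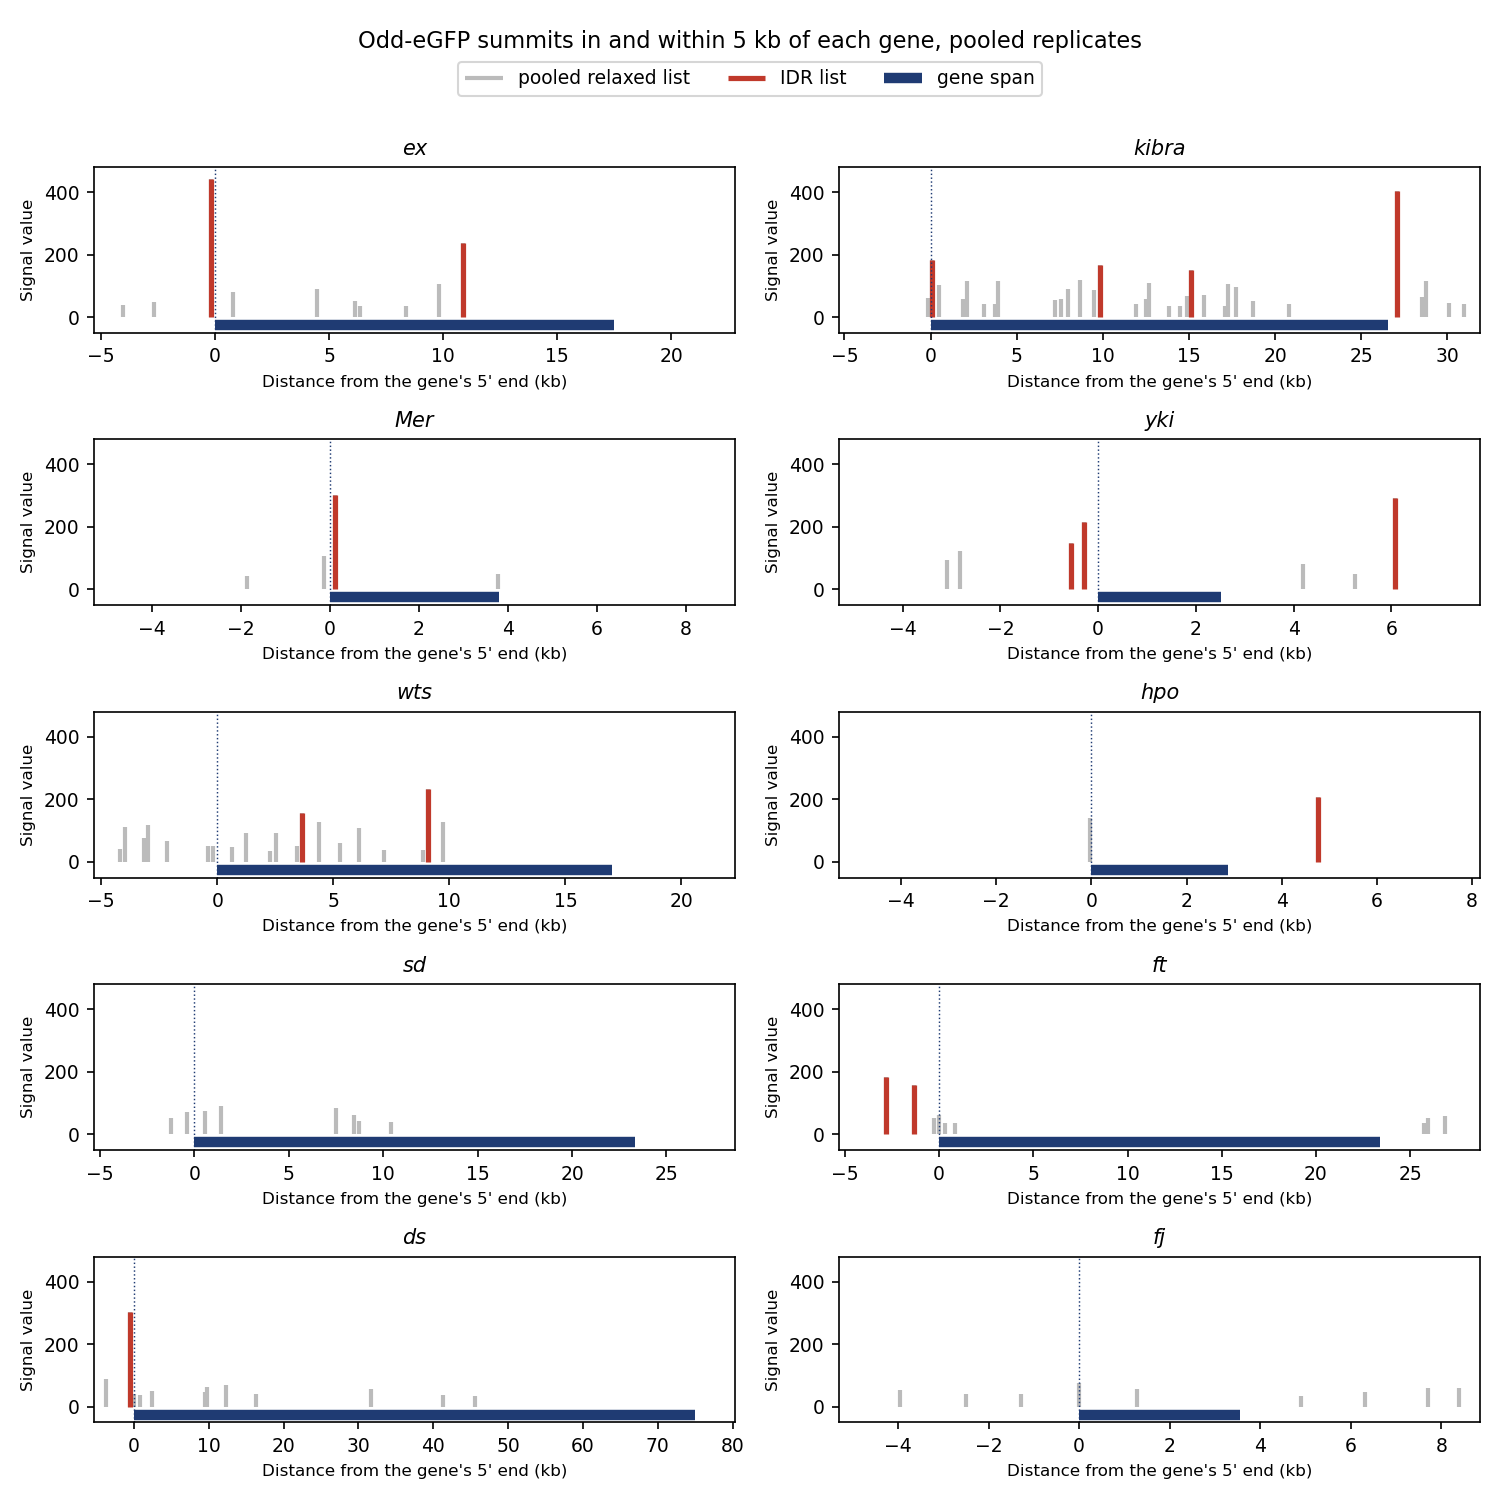
Positions of relaxed and IDR summits relative to the start of each of the 10 genes, in kb along the direction of transcription, with the signal value of each summit in the pool as height and the gene span as a bar below. IDR summits of ex, Mer and wts fall inside the span or just upstream, those of kibra fall inside it and past its 3' end, those of yki and hpo fall outside it, those of ft and ds fall upstream, and sd and fj have relaxed summits only.

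The cadherins of the Fat branch had their IDR summits upstream of their starts. ds (FBgn0284247, chr2L:640013-714983, minus strand) encodes Dachsous, the ligand of Fat. Its 1 IDR summit had 302.1 at rank 1245 in the pool, 146.8 at rank 1436 in replicate 1 and 160.9 at rank 1105 in replicate 2. The summit lay 569 bp upstream of the start, 12810 bp from the next protein-coding start and in the territory of ds only. No other IDR summit lay in the 75.0 kb of the gene, and the next one beyond the territory lay 113 kb from the gene. ft (FBgn0001075, chr2L:4198404-4221796, minus strand) encodes the receptor Fat. Its best signal was 184.4 at rank 2913 in the pool, 92.89 at rank 3210 in replicate 1 and 87.34 at rank 3394 in replicate 2. This summit lay 2803 bp upstream of ft and 2381 bp from the start of CG3702, and the replicate summits lay 2804 bp and 2803 bp upstream. A weaker one lay 1324 bp upstream of ft, nearest to the start of ft itself, with 157.3 at rank 3745 in the pool and 71.71 at rank 4749 in replicate 2. Replicate 1 had no summit within 100 bp of it, and its nearest lay 1432 bp upstream of ft, with 90.44 at rank 3349.

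The windows upstream of ds and ft are shown because these summits lie outside any promoter window of 500 bp. They are from dm6 on the strand of the gene, within 100 bp of the summit and cut in the same way. Capitals mark GATAAG, a word bound by GATA-family factors, or its reverse complement CTTATC.
ds upstream, chr2L:715452-715652: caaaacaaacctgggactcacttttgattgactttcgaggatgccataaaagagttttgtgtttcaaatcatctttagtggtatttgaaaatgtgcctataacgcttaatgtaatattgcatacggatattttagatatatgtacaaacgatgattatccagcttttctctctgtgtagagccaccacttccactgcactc
ft upstream, stronger, chr2L:4224499-4224649: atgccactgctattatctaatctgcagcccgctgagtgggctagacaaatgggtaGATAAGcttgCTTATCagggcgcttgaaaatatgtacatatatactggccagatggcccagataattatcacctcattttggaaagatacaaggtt
ft upstream, weaker, chr2L:4223020-4223220: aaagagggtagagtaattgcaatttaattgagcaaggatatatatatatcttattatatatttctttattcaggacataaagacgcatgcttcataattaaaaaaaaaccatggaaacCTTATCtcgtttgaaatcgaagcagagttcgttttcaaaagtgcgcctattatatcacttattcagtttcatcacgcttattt
The stronger ft window holds the word on both strands, starting 5 bp and 15 bp from the summit, and the weaker one holds it 18 bp from the summit. The ds window holds none of the words searched.

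fj (FBgn0000658, chr2R:18232761-18236311, plus strand) encodes Four-jointed, a Golgi kinase that phosphorylates the cadherin domains of Fat and Dachsous, and it had no IDR summit. Its strongest signal was 75.2 at rank 11284 in the pool, 56.11 at rank 7429 in replicate 1 and 56.22 at rank 6967 in replicate 2. In the pool this summit lay 1 bp from the start of fj and in replicate 2 it lay 0 bp from it. In replicate 1 the strongest lay 7711 bp past the start, and its summit nearest to that start was 1273 bp away from the pooled one. Just beyond the territory, 5.87 kb from the gene, lay an IDR summit of rank 3082 with a signal of 177.5, whose nearest protein-coding start was that of fj.

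Position relative to start sites divided the 16 summits evenly. Of them, 8 lay nearest to a start of the pathway gene and 8 nearest to that of another protein-coding gene. The share of 50% stood beside 39.7% over all 9992 combinations of a protein-coding gene and an IDR summit in its territory. By location, 6 lay upstream of the pathway gene, 7 inside it and 3 past its 3' end. Within 500 bp of a start site, called the promoter here, lay 8 of 16 or 50%, with an interval of 24.7 to 75.3%, against 45.7% of all IDR summits. Of these 8, only those at ex, kibra and Mer lay nearest to the start of the pathway gene, and the other 5 lay at Meltrin, RpL39, Gpat4 and Rep. Introns held 5 of 16, or 31.2%, against 39.1% of all IDR summits, and 3 were intergenic, or 18.8%, against 12.4%. When each IDR summit was given only to the protein-coding gene with the nearest start at any distance, 7 of the 10 genes held one, against 18.8% of all protein-coding genes. They were ex, kibra, Mer, wts, ft, ds and fj, so yki and hpo dropped out and fj came in.

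**Figure D3:**
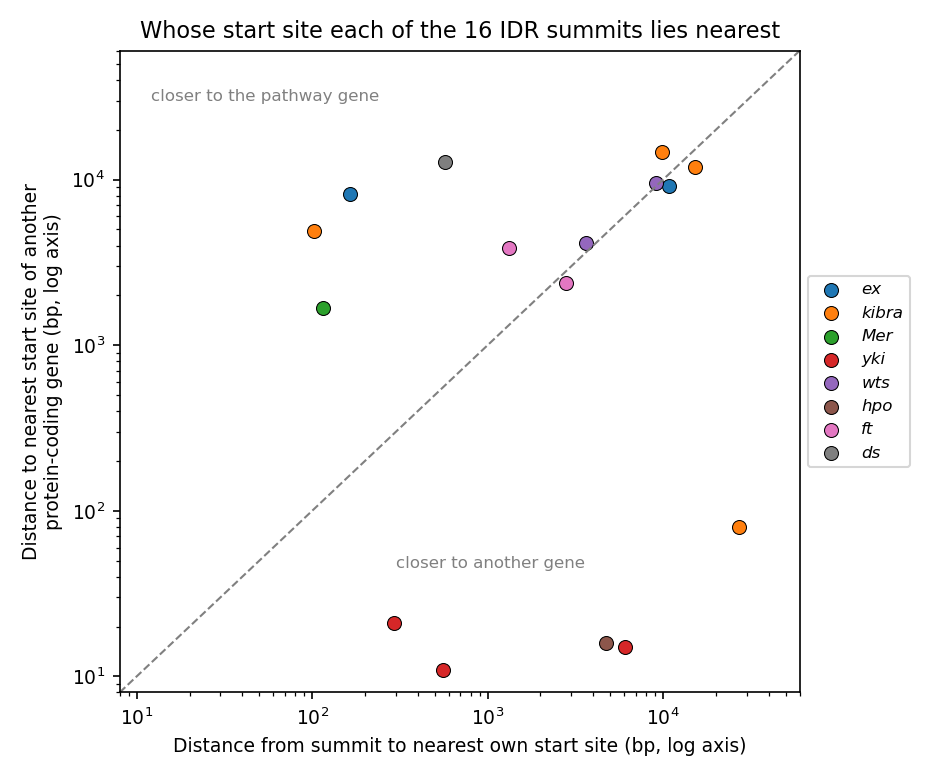
Distance from each of the 16 IDR summits to the nearest start site of its pathway gene (x axis) and of any other protein-coding gene (y axis), in bp on log axes, with the diagonal of equal distance. The 8 points above the line are nearer to the pathway gene, and the yki, hpo and strongest kibra points lie 11 to 80 bp from the start of another gene.

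The summits recurred between replicates about as often as those of the whole list. Within 100 bp, 11 of 16 had a summit among the 4291 strongest of both replicates, or 68.8% with an interval of 41.3 to 89.0%, against 66.6% of all IDR summits. Replicate 1 matched 13 of 16, or 81.2%, against 82.5% of all IDR summits. Replicate 2 also matched 13 of 16, or 81.2%, against 80.5% of all IDR summits. In the whole relaxed lists of both replicates 14 of 16 were matched, or 87.5%, against 92.9% of all IDR summits. The 2 not matched were the kibra summit 9812 bp into the gene and the weaker ft summit. The IDR list was made from these same replicates, so the matches are not separate evidence.

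**Figure D4:**
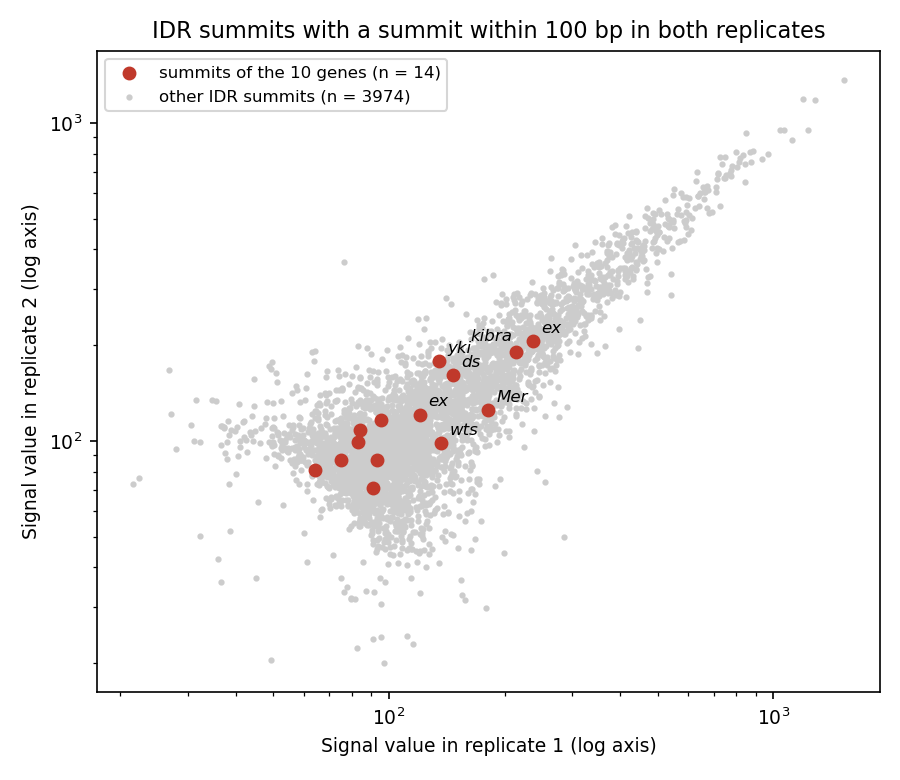
Signal of matched summits in replicate 1 and replicate 2 on log axes, with the 14 matched summits of the pathway genes in colour over all matched IDR summits in grey. The ex and kibra summits with the highest signal stand out at 236.6 and 214.3 in replicate 1 and at 205.9 and 190.7 in replicate 2.

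Summits were denser in these territories than over those of all protein-coding genes. The 10 territories cover 295.4 kb and held 5.42 IDR summits per 100 kb, against 3.61 over the territories of all protein-coding genes. In the relaxed pooled list of 30000 peaks they held 113 summits, or 38.2 per 100 kb, against 23.9 over all protein-coding territories. The genes differed widely in this list. kibra had 8.75 relaxed summits per 10 kb, wts 7.41 and fj 6.64, while hpo had 1.56 and ds 1.41. The median was 3.27 over the 10 genes and 1.74 over all protein-coding genes, so hpo and ds lay near the latter. kibra alone held 32 of the 113 summits and wts 20. Of the 113, 50 were matched in the relaxed lists of both replicates, or 44.2%, against 45.1% of the whole pooled list. fj had 0 of 9 matched and ft 2 of 9, against 6 of 7 for yki and 2 of 2 for hpo. kibra, wts and fj were thus dense in weak summits, and at fj none recurred in both replicates within 100 bp.

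Of the 7 words of known factors searched, GATAAG was in 4 of the 16 windows and each of the others in 0 or 1. Each word was searched on both strands in the window of 100 bp on each side of the summit, and a match is a description of the letters only. The Odd word, ACAGTAGC, was in 0 of 16 windows, with an upper limit of 20.6%, and in 0.862% of all IDR windows and 0.361% of flanks, windows of the same length 1000 bp away. Its last 7 letters, CAGTAGC, were in 1 of 16, the ex promoter, and in 2.05% of all IDR windows and 1.49% of flanks. GATAAG, searched after the windows had been seen, was in 4 of 16 or 25.0%, with an interval of 7.27 to 52.4%, against 13.5% of all IDR windows and 10.9% of flanks. The 4 were both ft windows, the kibra intron 15107 bp in and the yki summit at RpL39. The RpL39 window also held TATCGATA, the word of the promoter factor DREF, 60 bp from the summit, 1 of 16, against 1.93% of all IDR windows and 0.536% of flanks. GGAATG, the word of Scalloped, was in the same window only, 1 of 16, against 6.46% of all IDR windows and 9.21% of flanks. GAGAGAG, the word of the GAGA factor, was in the kibra intron 9812 bp in, 1 of 16, against 6.27% of all IDR windows and 4.24% of flanks. CAGGTAG, the word of Zelda, and GGTCACACT, the word of M1BP, were in 0 of 16. Zelda's was in 1.26% of all IDR windows and 1.31% of flanks, and M1BP's in 0.816% and 0.396%. The windows had a median GC content of 39.1%, against 36.8% for all IDR windows.

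Beyond the 10 genes, 24 of 37 other genes of the pathway, or 64.9%, held an IDR summit in their territory, against 39.7% of all protein-coding genes. These 37 genes, too, were chosen with earlier results of these data known. Of the 14 of them of 15 kb or more 13 held one, against 64.1% of all protein-coding genes of 15 kb or more. This class has no upper limit, and hth in it spans 132 kb, so length was not matched within it. Of the 13 under 5 kb 4 held a summit, against 34.2% of all protein-coding genes under 5 kb. The 37 include 1 non-coding gene, the microRNA gene mir-ban, while the background shares are over protein-coding genes only. It is 1 of the 4 genes under 5 kb with a summit. In 11 of the 24 the strongest summit lay nearest to a start of the pathway gene, and in 13 to that of another. Of 12 upstream and core regulators, 7 held one, or 58.3% against 39.7% of all protein-coding genes. The strongest were crb, which encodes the apical polarity protein Crumbs, at rank 886, sav, the adaptor of the Hippo kinase, at rank 1106, Schip1 at 1424, mop at 1514 and Pez at 1717. mats, Tao, jub, Rassf and Patj held none. Of these 5 only the mop summit lay nearest to its own gene's start, 4299 bp away. The crb summit lay 59 bp from the start of Uck, the sav summit 36 bp from that of p53, the Pez summit 46 bp from that of Cpr and the Schip1 summit 1218 bp from that of GATAd.

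Of 7 partners of the Fat branch, 5 held an IDR summit, or 71.4% against 39.7% of all protein-coding genes. Both of those of 15 kb or more, app and dachs, held one, and Dlish and lft, both under 5 kb, held none. app, which encodes the palmitoyltransferase Approximated, had its summit at rank 637, 209 bp from its own start. dco had its best at rank 1789, nearest to its own start at 1623 bp. The others lay nearest to neighbours. They ranked 1154 at dachs, an unconventional myosin, 668 bp from the start of Agpat2, 3560 at Zyx, 310 bp from that of CaMKII, and 3886 at Fbxl7, 101 bp from that of CG34276. Of 7 cofactors of Yorkie and Scalloped, 5 held one, or 71.4% against 39.7% of all protein-coding genes, and Tgi and tsh held none. Of these, 5 genes are of 15 kb or more, and 4 of the 5 held one. hth, a homeodomain partner of Yorkie, held 7 summits, the best at rank 1055, nearest to its own start at 3753 bp. mask had its best at rank 1166, 83 bp from its start, and Hipk at rank 1435, 156 bp from its start. vg had its best at rank 1895, 186 bp from the start of Nmda1, and Wbp2 at rank 3677, 49 bp from that of CG10948.

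Of 11 genes known as Yorkie targets, 7 held an IDR summit, or 63.6% against 39.7% of all protein-coding genes, and Ilp8, upd1, upd2 and upd3 held none. All 5 of 15 kb or more held one, and of the 4 under 5 kb only mir-ban, which is not protein-coding, did. CycE, the cyclin of S phase entry, had the strongest summit of the 37 genes, at rank 368 with a signal of 565.4, in an intron 540 bp from its start. In the replicates it ranked 313 in replicate 1 and 520 in replicate 2. Diap1, an inhibitor of cell death, held 4, the best at rank 396 with a signal of 545.8, in an intron 634 bp from its start, at ranks 380 in replicate 1 and 417 in replicate 2. dlp, a glypican, had its best at rank 952, which lay 33556 bp from its start and nearest to CG43121 at 6280 bp. mir-ban, the growth-promoting bantam microRNA, held 3, the best at rank 1063 and 2090 bp from its start. E2f1 had its best at rank 1604, nearest to Archease at 303 bp. CycE and Diap1 thus stood above every summit of the 10 genes, including ex at rank 631.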

How the data were processed

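Chromatin bound by Odd-eGFP was measured by ChIP-seq in whole embryos, in 2 biological replicates as numbered in the labels. The deposited files used were the relaxed peak lists of each replicate and of their pool and the IDR list, all on dm6. Per the deposited text records, alignments of the replicates and of a control gave the relaxed lists, which in turn gave the IDR list. The sources used here do not state the caller, the aligner, the read filters or the threshold of the IDR list. The deposited signal value is a score, which grows with depth and was used for order and selection inside each list only. The summit was the peak start plus the deposited offset, the other number read from each peak. Lists on dm3 were not used.

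Coordinates are 1-based. Genes and start sites came from Ensembl release 115 and sequence from the NCBI Release 6 genome. Summits were counted in each territory with Python 3.11.15, pandas 2.3.3 and scipy 1.17.1, in code tested on simulated data. Exact binomial intervals of 95% (Clopper-Pearson) cover counting only. No test was made, since there was 1 group. The members and lists were chosen with earlier results of these data known. All 10 genes are named, with the gene nearest to each summit and, per list, every gene with a summit where 5 or fewer held one and otherwise the 5 strongest, and the genes without one where 5 or fewer. GATAAG was added after the windows had been seen, as was the alternative that keeps the 5 kb limit for the nearest start.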

Additional observations from a re-analysis of the deposited data

How the results depend on the processing

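Of 41 alternative values for the main counts and shares, 34 stayed close to the value reported and 7 moved. A count was called close within 1.5-fold of the value reported, and a share inside the exact interval of that value. These intervals are wide, 24.7 to 75.3% for promoters and 41.3 to 89.0% for matches in both replicates. For the Odd word the interval was 0 to 20.6%. A word in only 0.862% of all IDR windows could hardly leave it, so its alternatives add little to the tally. A fall from 8 genes to 6 and a promoter share of 36.8% therefore passed as close, so the tally of 34 is weak evidence of stability. Counting within the gene span only left 4 of the 10 genes (ex, kibra, Mer and wts), against 11.9% of all protein-coding genes, 7 of their summits and 13 of the 37 other pathway genes. The strongest part of the IDR list, its 2145 best peaks, left 7 summits and 6 genes, against 27.0% of all protein-coding genes. Within 10 kb there were 26 summits at 9 genes, against 53.6% of all. Giving each summit to the nearest protein-coding start, with the limit of 5 kb kept, left 15 of the 37 genes and 6 of the 10, against 17.6% of all. Matching among the 2145 strongest peaks of each replicate gave 37.5% found in both. Only 7 of the 16 summits ranked among the 2145 strongest of the pool, and the share of all IDR summits at this cut was not computed. With 1 replicate left out, the genes with a summit numbered 8 to 9, their summits 17 to 19, the other pathway genes 23 to 26, the promoter share 36.8 to 47.1%, and the Odd word was in 0.

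No paired analysis was possible because the series holds 1 group. The depth of the libraries is unknown, and 16 summits leave wide intervals, so a share near that of all IDR summits does not show that the shares are equal. ft, hpo, yki and ds rest on the width of the territory, since none has an IDR summit inside its span.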
